A study of Mus musculus with 12 samples.

Results

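The mRNAs of 67 mouse genes for translation initiation factors (Eif genes) and elongation factors (Eef genes) were followed through RNA immunoprecipitation of the m6A readers YTHDF1, YTHDF2 and YTHDF3. The genes were chosen by name and biotype, with earlier results of these data known. Every protein-coding gene of the deposited table whose symbol begins with Eif or Eef and a digit was taken. Left out were 12 pseudogenes with such names. The genes taken were 67 of 55573 in the count table. All 67 were among the 17126 genes with a mean normalised count of at least 10 that were tested. All libraries came from C57BL/6 hippocampal neurons, taken from newborn pups, grown for 14 days in culture and with no genetic change given in the labels. Input was total RNA of lysate that met no antibody, and for the YTHDF1, YTHDF2 and YTHDF3 RIP groups (written below as a value with YTHDF1, and so on) RNA was recovered with an antibody against the endogenous protein, each with 3 replicates (12 libraries). Per the study's methods, pups of 1 litter and of both sexes were pooled, the 3 replicates were biological, the cultures were treated with Ara-C against glia, and the lysate of each replicate was divided among the 3 RIPs. A control-antibody precipitate was not analysed here, so every fold change is relative to Input alone.

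Translation of a capped mRNA begins when eIF4E binds the cap and the scaffold eIF4G joins it to the helicase eIF4A and, through eIF3, to the small ribosomal subunit that carries eIF2 and the initiator tRNA. eIF1, eIF1A, eIF5 and eIF5B set the start codon and join the subunits, after which eEF1A delivers aminoacyl-tRNA and eEF2 moves the ribosome along the message. Phosphorylation of eIF2 by its kinases and sequestration of eIF4E by 4E-BP proteins restrain initiation, and in neurons both routes are tied to synaptic plasticity and memory. YTHDF proteins bind N6-methyladenosine, a mark found mostly near stop codons and in long internal exons, and have been linked to the translation, decay and transport of the mRNAs they bind.

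Library totals were between 6020072 and 38909592 counts, and values are given as CPM, the usual read count relative to library size, after TMM scaling. Summed markers of neurons were between 2708 and 4302 CPM in Input, 4306 and 7438 with YTHDF1, 1828 and 3014 with YTHDF2 and 3012 and 5924 with YTHDF3, with 0 of 7 markers at 0. Astrocyte markers summed to between 256 and 2517 CPM in Input and 193 and 1555 CPM over the RIP libraries, whereas microglial markers did not exceed 3.81 CPM and oligodendrocyte markers did not exceed 22.2 CPM in any library. The part of these markers in the results below was not tested, and in a lysate of mixed cells fewer cells of a type and less RNA per cell cannot be told apart. The factor genes took 0.707 ± 0.0416% of all counts in Input, 0.583 ± 0.0275% with YTHDF1, 0.562 ± 0.0534% with YTHDF2 and 0.684 ± 0.0456% with YTHDF3 (mean ± SD, n = 3 each). Of the counts in protein-coding genes alone, they took 1.12 ± 0.0752% in Input against 0.628 ± 0.0328%, 0.779 ± 0.0588% and 0.721 ± 0.0476% with YTHDF1, YTHDF2 and YTHDF3.

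A gene was called enriched or depleted when it differed from Input by 0.32 or more on the log2 scale with an adjusted p no higher than 0.05 (edgeR). In every RIP more factor mRNAs were depleted than enriched, and the enriched set included the scaffolds Eif4g1 and Eif4g3. In the YTHDF1 RIP 35 of the 67 genes (52.2%) were depleted and 11 (16.4%) enriched, against 25.8% and 27.2% of all genes tested and 23.1% and 29.8% of protein-coding genes tested. In the YTHDF2 RIP 34 (50.7%) were depleted and 5 (7.46%) enriched, against 19.0% and 15.7% of all genes tested and 16.8% and 17.7% of protein-coding ones. In the YTHDF3 RIP 37 (55.2%) were depleted and 9 (13.4%) enriched, against 23.0% and 16.4% of all genes tested and 19.4% and 19.1% of protein-coding ones. With the replicate block in the YTHDF3 and Input libraries alone, which were treated as paired, 42 factor genes (62.7%) were depleted and 10 (14.9%) enriched, against 32.2% and 36.3% of all genes tested. The median log2 fold change of the factor genes was -0.64 with YTHDF1, -0.64 with YTHDF2 and -0.74 with YTHDF3, where the median of protein-coding genes tested was 0.12, 0.08 and 0.14. The share depleted was thus above the background in each comparison, while the share enriched was below it. Scaling by library size without TMM moves the median of all genes by -0.40, 0.07 and 0.33 in the 3 RIPs. Under it, 41, 30 and 29 factor genes were depleted and 7, 5 and 11 enriched. Of 17126 genes tested, it called 6219, 3052 and 3031 depleted and 3087, 2911 and 4822 enriched. Among calls over all genes tested, this scaling moved the enriched share from 51.4% to 33.2% for YTHDF1 and from 41.7% to 61.4% for YTHDF3.

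**Figure D1:**
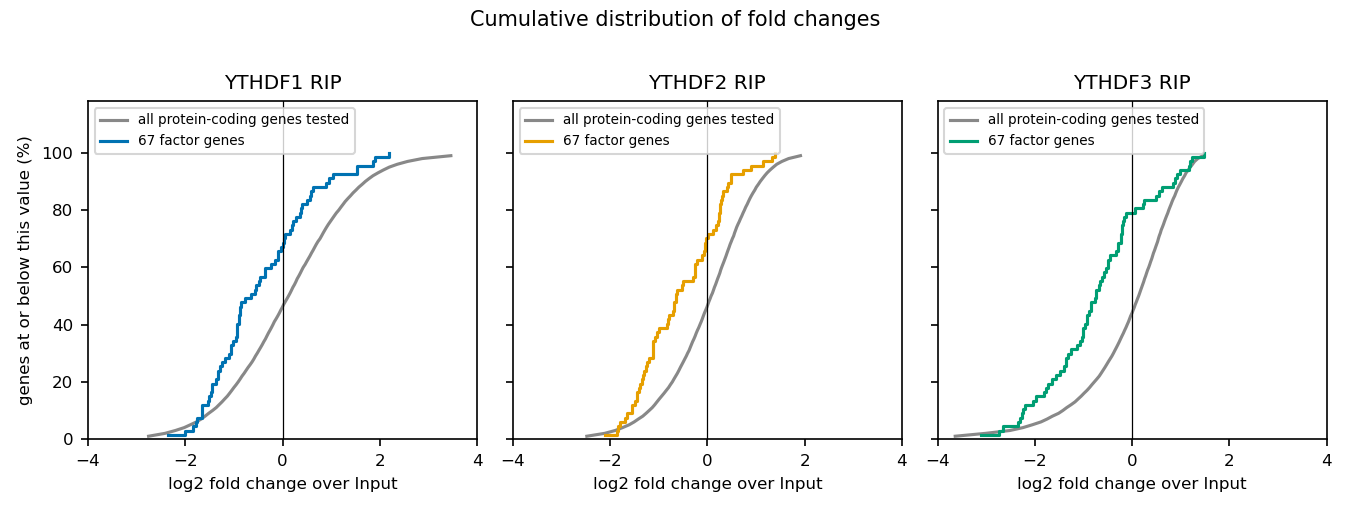
Cumulative distribution of log2 fold changes over Input (horizontal axis) in each RIP, as the percent of genes at or below a value (vertical axis), for the 67 factor genes in colour and all protein-coding genes tested in grey (drawn between their 1st and 99th percentiles). The coloured curve lies to the left of the grey one over most of its range in all 3 RIPs, with medians of -0.64, -0.64 and -0.74 against 0.12, 0.08 and 0.14.

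The same factor mRNAs were often called in every RIP. Depletion in all 3 was called for 28 factor genes (41.8%), compared with 13.8% of all genes tested, and enrichment in all 3 for 4 (5.97%), compared with 8.45% of all genes tested. These 4 were Eif4g1, Eif4g3, Eif2ak4 and the methyltransferase gene Eef1aknmt. No factor gene was enriched in one RIP and depleted in another, which was near the background of 1.37% of all genes tested, and 12 (17.9%) had no call in any, compared with 35.0%. The 3 comparisons share the Input libraries, so these counts are not independent of each other.

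The eIF4G family was divided between enrichment and depletion. Eif4g1 (chr16:20668313-20692884, GRCm38, plus strand) encodes the principal scaffold of the cap-binding complex. It stood at 294, 311 and 306 CPM in the Input libraries, 1236, 1255 and 1634 with YTHDF1, 635, 604 and 774 with YTHDF2 and 667, 712 and 687 with YTHDF3. Every RIP library was above every Input library. The log2 fold change was 2.18 ± 0.19 (SE) for YTHDF1, a 4.53-fold enrichment with an edgeR adjusted p of 8.09e-06, 1.14 ± 0.18 for YTHDF2 and 1.18 ± 0.18 for YTHDF3. Its paralog Eif4g3 (chr4:137993022-138208508), a scaffold with the same partners, followed with 236 ± 26.5 CPM in Input (SD, n = 3) and log2 fold changes of 1.90 ± 0.21, 0.73 ± 0.21 and 1.23 ± 0.21. Eif4g2 encodes DAP5, a scaffold that lacks the eIF4E-binding region and serves cap-independent initiation, and it went the other way. Its CPM were 621, 596 and 671 in Input, 253, 351 and 329 with YTHDF1, 248, 263 and 281 with YTHDF2 and 567, 461 and 463 with YTHDF3. It was depleted with YTHDF1 (log2 fold change -1.02 ± 0.18) and YTHDF2 (-1.25 ± 0.18), while with YTHDF3 the value of -0.34 ± 0.18 did not pass the test (edgeR adjusted p = 0.152). The YTHDF2 enrichment of Eif4g3 was lost when Input replicate 3 or YTHDF2 RIP replicate 3 was left out, with a lowest value of 0.60.

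Of the 3 cap-binding genes, Eif4e and Eif4e3 were called in different RIPs. Eif4e, the cap-binding subunit itself, had 66.3, 62.8 and 59.4 CPM in Input and 42.9, 122 and 83.3 with YTHDF1, so that these groups overlapped. All YTHDF2 RIP libraries (27.9, 22.7 and 22.01 CPM) and all YTHDF3 RIP libraries (40.5, 34.2 and 30.03) lay below Input. Eif4e was depleted with YTHDF2 (log2 fold change -1.38 ± 0.30) and YTHDF3 (-0.85 ± 0.30, edgeR adjusted p = 0.0398), and the YTHDF3 call was lost with the replicate number as a block over all libraries (edgeR adjusted p = 0.0552) and on leaving out any 1 of 9 libraries. Eif4e3, a weaker cap-binding relative, had 14.1, 13.0 and 9.85 CPM in Input against 26.2, 67.7 and 39.9 with YTHDF1, a 3.62-fold enrichment (log2 1.86 ± 0.32, edgeR adjusted p = 0.000582). In the YTHDF2 and YTHDF3 RIPs its values lay between 7.38 and 12.5 CPM and overlapped Input. An overlapping gene on the same strand shares 14.8% of the exonic length of Eif4e3, and reads there were counted for both genes. Eif4e2, which forms a repressive cap-binding complex, was depleted with YTHDF1 (-0.47 ± 0.16) and YTHDF3 (-0.58 ± 0.16).

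The regulators of eIF4E were mixed. Eif4ebp2, the main 4E-BP of the brain, had 29.5, 44.4 and 49.8 CPM in Input and overlapped it in every RIP, with log2 fold changes of -0.49 ± 0.23, -0.05 ± 0.23 and -0.21 ± 0.22 and no call. Its sister gene Eif4ebp1 was depleted with YTHDF2 (-1.13 ± 0.40) and YTHDF3 (-1.47 ± 0.39). Eif4enif1 encodes 4E-T, which carries eIF4E into the nucleus and into P-bodies. It was enriched with YTHDF3 (0.88 ± 0.13) and with YTHDF1 (0.51 ± 0.13, a call lost under scaling by library size). Eif4ebp3 was at 0.827 ± 0.326 CPM in Input and enriched with YTHDF2 and YTHDF3, but 67.3% of its exonic length is shared with Maskbp3 on the same strand, so its counts cannot be assigned to it alone.

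**Figure D2:**
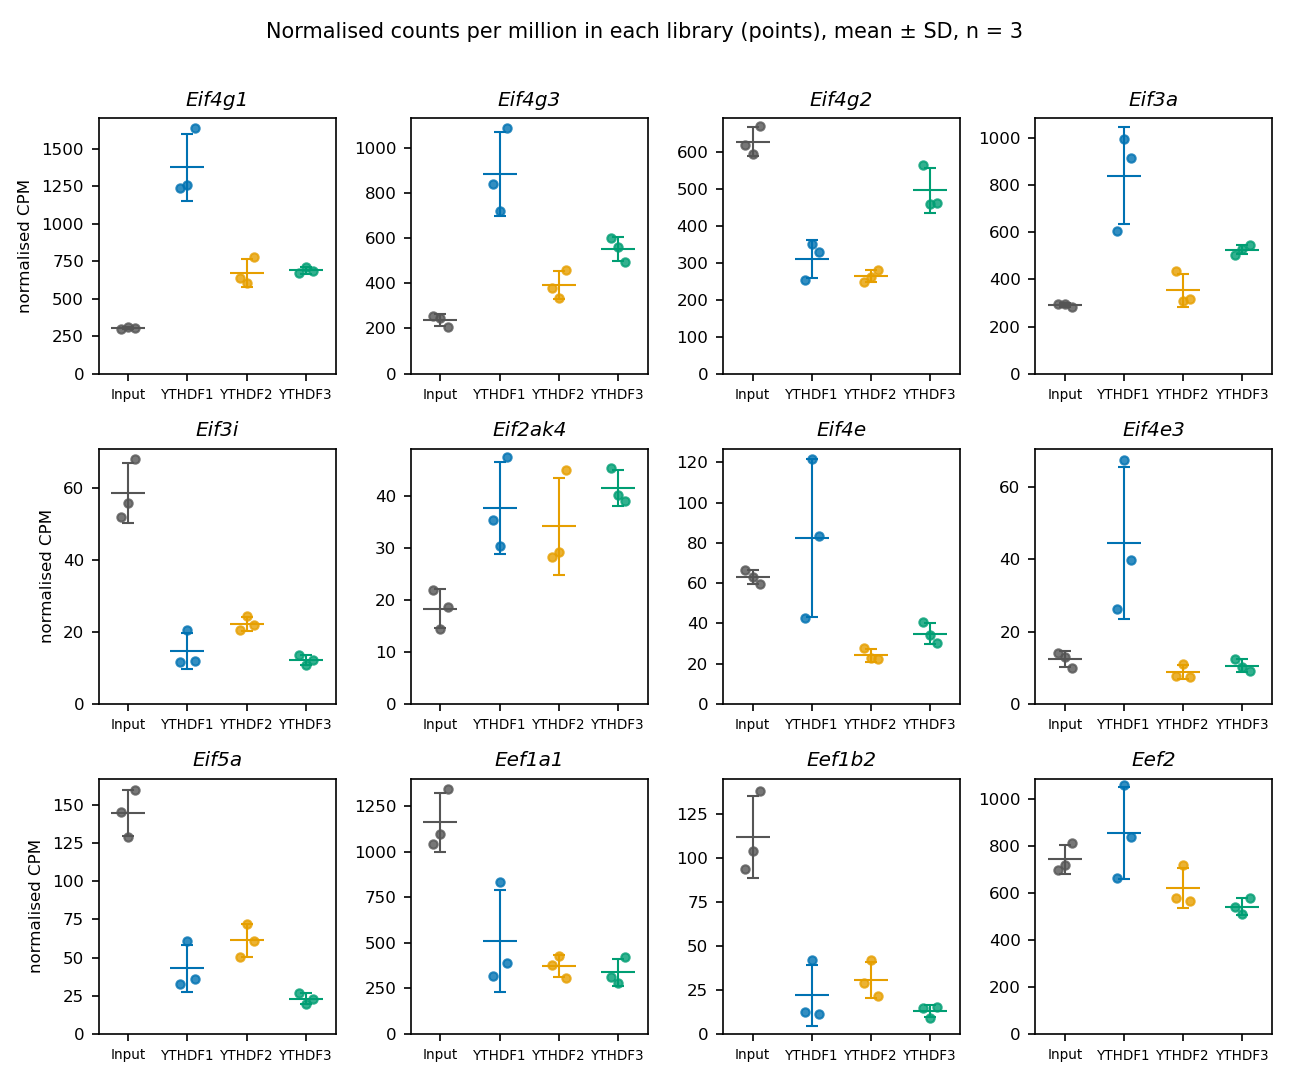
Normalised CPM (vertical axis, from 0, with a scale of its own in each panel) of 12 factor genes in the Input, YTHDF1, YTHDF2 and YTHDF3 libraries (points, n = 3 each), with the mean (long bar) and SD (whiskers). Eif4g1, Eif4g3 and Eif2ak4 are above Input in all RIP libraries, Eif3i, Eif5a, Eef1a1 and Eef1b2 are below it in all, and Eef2 overlaps it in the YTHDF1 and YTHDF2 RIPs.

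Genes of the helicase module showed depletion or no call. Eif4a1, the general helicase, was depleted in all 3 RIPs, from 204 ± 19.6 CPM in Input to 109, 114 and 69.3 CPM on average (log2 fold changes -0.90 ± 0.25, -0.83 ± 0.25 and -1.55 ± 0.26). Its neuron-rich paralog Eif4a2 had 195, 172 and 194 CPM in Input and 134, 193 and 109, then 217, 287 and 172, then 132, 123 and 144 with YTHDF1, YTHDF2 and YTHDF3. These groups overlapped for YTHDF1 and YTHDF2, whereas all YTHDF3 libraries lay below Input. Its YTHDF3 value of -0.49 ± 0.24 had no call over all libraries, but -0.44 ± 0.10 passed when the 2 groups were fitted by themselves and the replicate number was a block (edgeR adjusted p = 0.000319). Several small RNA genes on the same strand share exonic bases with Eif4a1 and Eif4a2, each at most 3.32% and 3.33% of the exonic length. Reads there were counted for both genes. Eif4a3, a core protein of the exon junction complex, was depleted with YTHDF3 (-0.66 ± 0.19). Eif4h, which stimulates the helicase, was depleted in each RIP (-0.85 ± 0.16, -0.70 ± 0.16 and -0.76 ± 0.16), while its relative Eif4b had no call.

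eIF3, the large complex that bridges eIF4G and the small subunit, was mostly depleted. Of 14 genes for its subunits, 10 were depleted with YTHDF1, 9 with YTHDF2 and 11 with YTHDF3. These shares of 71.4%, 64.3% and 78.6% compare with 25.8%, 19.0% and 23.0% of all genes tested. The median log2 fold changes were -1.08, -1.31 and -1.22. Eif3a, the largest subunit, was the main exception, at 297, 297 and 283 CPM in Input, 608, 999 and 916 with YTHDF1, 434, 310 and 317 with YTHDF2 and 505, 531 and 545 with YTHDF3. Although every RIP library was above every Input library, only the YTHDF1 (log2 1.53 ± 0.22) and YTHDF3 (0.85 ± 0.21) differences passed the test, and the YTHDF2 difference of 0.28 ± 0.21 did not (edgeR adjusted p = 0.341). Eif3c was also enriched with YTHDF1 (0.95 ± 0.19). Eif3b, a scaffold subunit, had no call, with values of 0.37 ± 0.17, 0.22 ± 0.17 and -0.13 ± 0.17.

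Eif3i had the largest fold change among the depleted eIF3 genes with YTHDF1. Eif3i fell from 51.8, 55.9 and 67.9 CPM in Input to 11.6, 20.4 and 11.9 with YTHDF1, 20.3, 24.3 and 21.9 with YTHDF2 and 13.7, 10.7 and 12.04 with YTHDF3. This was a depletion of 3.99-fold, 2.63-fold and 4.82-fold (edgeR adjusted p = 5.18e-05, 0.00113 and 5.17e-05), with no overlap between Input and any RIP. Eif3f, Eif3g and Eif3k were also depleted in each RIP, with log2 fold changes between -1.30 and -2.35 in the 3 RIPs. Eif3e, a subunit with a role in selective translation, stood at 57.8 ± 3.34 CPM in Input and changed by -1.46 ± 0.25, -1.54 ± 0.25 and -1.65 ± 0.25. Eif3j1 and its single-exon copy Eif3j2 were both depleted in every RIP, and reads that align to both were counted for each.

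Among factors for start codon selection and subunit joining, Eif5b stood apart. It encodes the GTPase that joins the large subunit, and its CPM rose from 82.9, 89.4 and 73.3 in Input to 222, 275 and 210 with YTHDF1 (2.88-fold, edgeR adjusted p = 5.35e-05) and to 128, 120 and 130 with YTHDF3 (1.54-fold, edgeR adjusted p = 0.0155). The YTHDF2 RIP, with 108, 79.7 and 80.0 CPM, overlapped Input. Eif1, the guardian of start codon fidelity, was depleted in all 3 (-1.32 ± 0.19, -1.44 ± 0.19 and -2.03 ± 0.19), as were Eif1b and Eif5. The eIF1A genes separated, since Eif1a was enriched with YTHDF1 (0.59 ± 0.18) and its X-linked relative Eif1ax was depleted with YTHDF2 (-1.35 ± 0.40). The Eif1a call was lost under scaling by library size or by TMM over protein-coding genes, and in 2 groups with the replicate block.

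Genes of eIF2 and of its exchange factor were depleted or had no call, whereas 2 of the 4 eIF2 kinases were enriched. Of 6 genes for eIF2, eIF2A and eIF2D, 5 were depleted with YTHDF1, 3 with YTHDF2 and 4 with YTHDF3. Eif2s1, the subunit that the kinases phosphorylate, had 35.6, 37.7 and 38.9 CPM in Input and between 8.99 and 21.3 CPM in all RIP libraries. The log2 fold changes were close to each other (-1.36 ± 0.26, -1.45 ± 0.26 and -1.36 ± 0.26). Of the 5 genes for eIF2B, which recharges eIF2 with GTP, 3 were depleted with YTHDF1, 3 with YTHDF2 and 4 with YTHDF3. Their shares were 60.0%, 60.0% and 80.0%, against the same 25.8%, 19.0% and 23.0% of all genes tested. Eif2b5, the catalytic subunit, fell by 0.94, 1.11 and 1.03 on the log2 scale. Eif2ak4 (GCN2, a sensor of amino acid lack, at chr2:118388618-118475234) had 22.0, 14.4 and 18.7 CPM in Input, 35.4, 30.4 and 47.6 with YTHDF1, 28.3, 29.3 and 45.0 with YTHDF2 and 45.5, 40.3 and 39.1 with YTHDF3. All RIP values exceeded all Input values, and the log2 fold changes were 1.04 ± 0.24, 0.90 ± 0.24 and 1.18 ± 0.24. The YTHDF2 call was lost without Input replicate 2 or YTHDF2 RIP replicate 3, where the lowest value was 0.65. Eif2ak3 (PERK, the kinase of the endoplasmic reticulum) was enriched with YTHDF3 (0.93 ± 0.20) and with YTHDF1 (0.64 ± 0.20, a call lost under scaling by library size). By contrast, Eif2ak1 (HRI) was depleted with YTHDF2 (-0.64 ± 0.14). For Eif2ak2 (PKR) the Input libraries ran from 2.44 to 9.00 CPM, and it was called enriched with YTHDF3 only in the 2-group fit with the replicate block (0.61 ± 0.15, edgeR adjusted p = 0.00118).

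Eif5a was the mRNA the study used as its unmethylated reference in RIP-RT-qPCR. It encodes the hypusinated factor that relieves stalled ribosomes (chr11:69916714-69921958, minus strand). Its level was 146, 129 and 160 CPM in Input, 32.4, 60.5 and 36.0 with YTHDF1, 50.7, 71.8 and 61.0 with YTHDF2 and 26.9, 19.6 and 22.8 with YTHDF3. No RIP library reached the lowest Input library. The depletion was 3.37-fold, 2.37-fold and 6.27-fold (edgeR adjusted p = 0.000163, 0.00283 and 4.01e-05), so a fold change expressed relative to Eif5a would differ by RIP. The second gene, Eif5a2, behaved differently, with 14.5, 12.9 and 12 CPM in Input and 6.34, 24.8 and 19.98 with YTHDF1. It overlapped Input there (log2 0.38 ± 0.37) and was depleted with YTHDF2 (-1.21 ± 0.39), a call that was lost on leaving out any 1 of 5 libraries, and with YTHDF3 it passed only in the 2-group fit with the replicate block (-0.44 ± 0.13, edgeR adjusted p = 0.00405). Eif6, which keeps the ribosomal subunits apart, was depleted in each RIP (-1.28 ± 0.17, -0.69 ± 0.17 and -1.40 ± 0.17).

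The elongation factors included the most abundant mRNAs of the set. Per kilobase of exonic length, Eef1a1 was highest in Input at 466 ± 65.0 CPM per kb, followed by Eef2 at 224 ± 18.3 and Eef1a2 at 129 ± 46.6, and the ranges of these neighbours did not overlap. Eif3c, Eif1, Eif4g2 and Eif5a came next at 70.0 ± 8.97, 65.2 ± 2.90, 61.9 ± 3.80 and 60.9 ± 6.43, and each of these overlapped the one above it. Eef1a1 and Eef1a2 encode alternative forms of the same tRNA carrier, the latter being the adult neuronal and muscle form. Eef1a1 fell from 1042, 1099 and 1346 CPM in Input to 316, 833 and 389 with YTHDF1, 378, 430 and 310 with YTHDF2 and 312, 282 and 422 with YTHDF3. The log2 fold changes were -1.18 ± 0.33, -1.64 ± 0.34 and -1.78 ± 0.34, and the groups did not overlap. Eef1a2, in contrast, had 343, 304 and 158 CPM in Input and overlapped it in each RIP, with values of -0.04 ± 0.36, -0.10 ± 0.36 and -0.53 ± 0.36 and no call over all libraries. With the replicate block and the YTHDF3 and Input libraries alone, Eef1a2 was depleted (-0.46 ± 0.10, edgeR adjusted p = 0.000186), and so was Eef2 (-0.40 ± 0.10, edgeR adjusted p = 0.00103).

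Of the 3 subunits of the complex that reloads eEF1A with GTP, Eef1b2 and Eef1g were depleted and Eef1d was not called. Eef1b2, the exchange factor (chr1:63176825-63180486), had 93.6, 104 and 138 CPM in Input, 12.2, 42.0 and 11.4 with YTHDF1, 29.1, 41.7 and 21.3 with YTHDF2 and 14.5, 9.18 and 15.1 with YTHDF3. Its depletion of 5.12-fold, 3.65-fold and 8.65-fold was without overlap (edgeR adjusted p = 0.00159, 0.0101 and 0.000482). The values of Eef1g were lower in each RIP (-1.46 ± 0.38, -1.08 ± 0.38 and -1.82 ± 0.39), and Eef1e1, a small protein of the tRNA synthetase complex, was also depleted (-1.65 ± 0.34, -2.10 ± 0.36 and -2.74 ± 0.35). Eef1d, the exchange subunit beside Eef1b2, had values of 0.04 ± 0.20, 0.24 ± 0.20 and -0.23 ± 0.20. For Eef2, Input stood at 697, 721 and 812 CPM, and the YTHDF1 (665, 1058 and 839) and YTHDF2 (577, 717 and 564) libraries overlapped it. Of the 7 genes with eEF1 or eEF2 names, Eef1e1 included, 4 were depleted in each RIP and 0 enriched by edgeR. At an unadjusted p under 0.05, 0 were enriched, and by DESeq2 also 0. The 4 depleted genes were Eef1a1, Eef1b2, Eef1g and Eef1e1, so the share below counts a gene of the tRNA synthetase complex. The depleted share of 57.1% compares with 25.8%, 19.0% and 23.0% of all genes tested, where 27.2%, 15.7% and 16.4% were enriched. Eef2k, the kinase that inhibits eEF2 and is activated by calcium, had no call, at 42.5 ± 6.54 CPM in Input and between 37.2 and 62.6 CPM in the RIP libraries. Among the methyltransferases of eEF1A, Eef1aknmt rose from 8.22, 7.83 and 8.14 CPM to between 10.5 and 26.3 CPM in the RIP libraries (log2 0.56 ± 0.21, 1.34 ± 0.22 and 0.99 ± 0.21). Its YTHDF1 enrichment was close to the threshold (edgeR adjusted p = 0.0455) and was lost on leaving out any 1 of 9 libraries, and after removal of the length trend the value was -0.25.

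**Figure D3:**
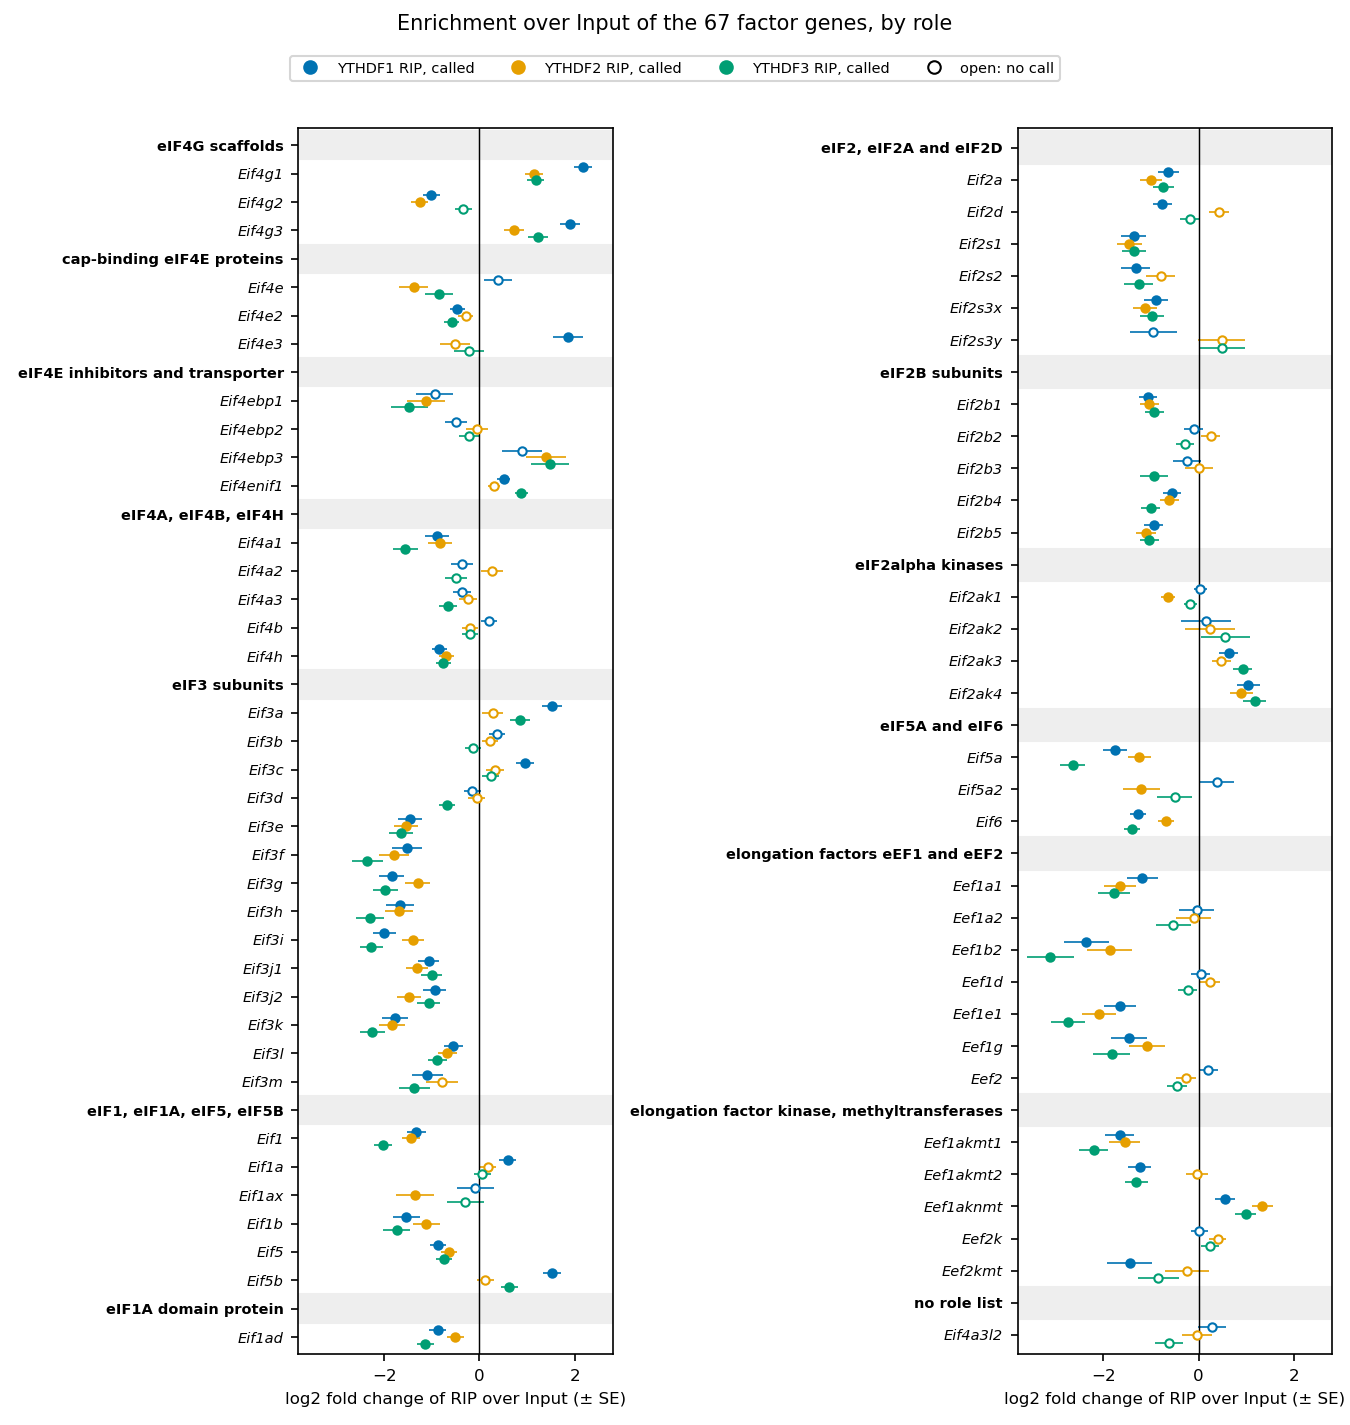
Log2 fold changes over Input (horizontal axis, ± SE from edgeR) of the 67 factor genes, grouped by role, in the YTHDF1 (blue), YTHDF2 (orange) and YTHDF3 (green) RIPs. Filled points passed the fold and adjusted p thresholds, and open points did not. Eif4g1 (2.18, 1.14 and 1.18) lies at the right and Eef1b2 (-2.35, -1.87 and -3.11) at the left.

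Length went with enrichment among these genes as it did among all protein-coding genes. The median coding length was 3345 bases for the factor genes enriched with YTHDF1 and 978 for those depleted, 4737 and 933 with YTHDF2, and 3651 and 963 with YTHDF3. Among all protein-coding genes the medians were 2379 and 747, 2400 and 696, and 2763 and 669. Across genes, which are not independent replicates and share the same libraries, Spearman's rho of transcript length with the log2 fold change was 0.58, 0.31 and 0.61 over the 67 factor genes and 0.61, 0.41 and 0.61 over 13418 protein-coding genes. The trend of each library with the exonic length of the gene, which is not its coding or transcript length, was then removed. With it removed, 37, 30 and 33 factor genes remained depleted or became so and 9, 4 and 6 were enriched with YTHDF1, YTHDF2 and YTHDF3. Of 17126 genes tested, this fit called 4211, 2811 and 2877 depleted and 3799, 2220 and 2609 enriched. Of the original calls, 34, 28 and 32 depletions and 6, 3 and 6 enrichments were kept. Eif4g1 was among those kept in all 3 RIPs, and Eif2ak4 lost its YTHDF1 and YTHDF2 calls. Eif4g3 lost its YTHDF2 call, Eif3a and Eif5b their YTHDF3 calls, and Eef1aknmt its YTHDF1 and YTHDF3 calls. Eif1a, Eif2ak3 and Eif4enif1 lost their YTHDF1 calls.

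**Figure D4:**
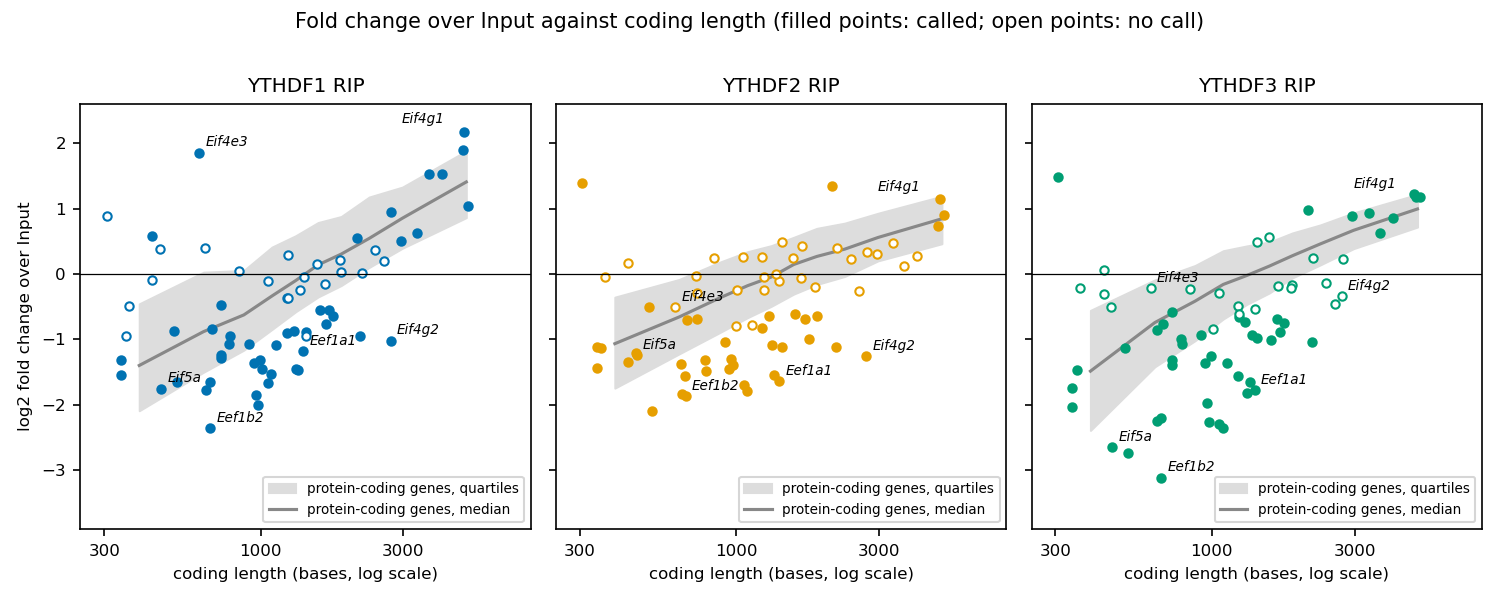
Log2 fold change over Input (vertical axis) against coding length in bases (horizontal axis, log scale) for the 67 factor genes, filled where called and open where not. The grey line and band give the median and quartiles of protein-coding genes in 10 equal bins of coding length, whose medians run from -1.40 in the shortest bin to 1.41 in the longest for YTHDF1, and many factor genes of medium length lie below the band.

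The letters GGACT, one form of the m6A consensus, were counted on the sense strand of 1 GENCODE transcript a gene. They occurred in 89.6% of the 67 factor transcripts and in 92.1% of 13418 protein-coding transcripts, so nearly every transcript held one. Their density was 1.54 per kb in the median factor gene enriched with YTHDF1 and 1.13 in the median depleted one, compared with 1.03 and 1.00 among all protein-coding genes. Over the 67 genes, Spearman's rho of the density with the log2 fold change was 0.14, 0.18 and 0.12. Eif4g1 had 9 such sites, Eif4g3 10, Eif2ak4 4, Eif5a 2 and Eef1b2 1, whereas Eef1a1, Eif3g and Eif3k had 0. The site nearest to the stop codon is shown for 3 mRNAs enriched in every RIP and 2 depleted from every RIP, with GGACT in capitals and 10 bases to each side (GRCm38). A match says nothing of whether the adenosine is methylated.
Eif4g1: gtggggcaggGGACTtggagccatg
Eif4g3: ttttaaacgaGGACTcatactttaa
Eif2ak4: aaatggacagGGACTtatactgaaa
Eif5a: gcccttggctGGACTcctattcaaa
Eef1b2: ctgcttttgaGGACTacgtacagtc
The Eif4g1 site lies in the 3′ UTR, 19 bases after the first base of the stop codon (chr16:20692438-20692462). Those of Eif4g3 (chr4:138206414-138206438) and Eif2ak4 (chr2:118475088-118475112) are also in the 3′ UTR, 272 and 40 bases after it. The Eif5a site is in the 3′ UTR at 97 bases (chr11:69917244-69917268, minus strand), and the Eef1b2 site is coding, 43 bases before the stop codon (chr1:63179557-63179581). Eif3a, enriched with YTHDF1 and YTHDF3, had 5 sites, all coding, the nearest 182 bases before the stop codon.

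Several translation factor mRNAs are known TOP mRNAs, which begin with a C and a run of pyrimidines and are controlled together by mTOR. Of 10 such genes in the set, 6 were depleted in every RIP (Eef1a1, Eef1b2, Eef1g, Eif3e, Eif3f and Eif3h). Depletion in every RIP was called for 41.8% of all 67 factor genes and 13.8% of all genes tested. Eef1a2, Eef1d, Eef2 and Eif4b had no call. None was enriched (edgeR; 0 at an unadjusted p under 0.05 and 0 by DESeq2 in each RIP). Start-site sequences of the RefSeq promoter table (GRCm38.p6) matched 52 of the 67 genes and 6 of these 10. The longest unbroken run of C and T bases beginning with C is in capitals for 2 depleted TOP mRNAs and 1 without a call. It was searched on the sense strand from 20 bases before to 40 after the annotated start. Where a gene had several annotated starts, the one with the longest run was kept, in the background too. Whether transcription begins at these starts was not tested. A marked run may thus lie partly or wholly before the mRNA, and need not be its TOP sequence.
Eef1a1: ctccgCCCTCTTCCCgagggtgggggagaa
Eif3f: ctaggCTCTCTCTCTTTCTCggcaagatgg
Eef1a2: tggttCTCTCCCTCgctccggtgcatcatt
The run was 10 bases in Eef1a1 (chr9:78481705-78481734, minus strand), beginning 5 bases before the annotated start, a length reached by 11.5% of 10565 protein-coding promoters, and 15 in Eif3f (chr7:108934406-108934435), beginning 4 bases before the start and reached by 2.51%. In Eef1a2 (chr2:181156974-181157003, minus strand) it was 9 bases, reached by 15.9%, and began at base 18, with the annotated start as base 1. Eef1b2, depleted in all 3 RIPs, had a longest run of 5 bases, beginning at base 33 by the same count, a length reached by 63.6%.

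The RIPs were then compared with each other, with a call at a difference of at least 2-fold. With TMM scaling, most calls between YTHDF1 and the other readers were higher with YTHDF1, among factor genes and all genes tested alike. Between YTHDF1 and YTHDF2, 8 factor genes (11.9%) were higher with YTHDF1, against 11.4% of all genes tested, and 2 (2.99%) with YTHDF2, against 6.1%. Between YTHDF1 and YTHDF3, 3 (4.48%) were higher with YTHDF1, against 10.8%, and 0 with YTHDF3, against 3.63% (edgeR; 4 at an unadjusted p under 0.05 and 1 by DESeq2). Between YTHDF2 and YTHDF3, 2 (2.99%) were higher with YTHDF2, against 3.95%, and 0 with YTHDF3, against 1.16% (edgeR; 8 at an unadjusted p under 0.05 and 1 by DESeq2). These shares were near or below the background of each comparison. The split depended on the scaling, since with library size alone 3 and 11, 1 and 8, and 2 and 2 factor genes were called in the respective directions.

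Eif4e3 had the largest fold differences between RIPs. Its mean of 44.6 CPM with YTHDF1 was 5.16-fold above the 8.66 CPM of the YTHDF2 RIP (log2 2.37 ± 0.33, edgeR adjusted p = 0.000379) and 4.21-fold above the 10.6 CPM of the YTHDF3 RIP (2.08 ± 0.32, edgeR adjusted p = 0.00107). Eif4e followed with 82.6 CPM on average with YTHDF1 against 24.2 and 34.9, which gave log2 differences of 1.77 ± 0.31 and 1.24 ± 0.30. The second of these was lost without YTHDF1 RIP replicate 2, YTHDF3 RIP replicate 2 or YTHDF3 RIP replicate 3. In the 2-group fit with the replicate block, the calls of Eif4e3, Eif4e and Eef1e1 over YTHDF3 were all lost. Eif5b (1.40 ± 0.18), Eif3a (2.38-fold), Eif4g3 (1.17 ± 0.21) and Eif4g1 (1.04 ± 0.18) were higher with YTHDF1 than with YTHDF2 without overlap. For these 4 the difference did not pass once the length trend was removed, whereas Eif4e3, Eif4e and Eif5a2 kept theirs. Eef1e1, depleted in both, was higher with YTHDF1 than with YTHDF3 (1.09 ± 0.34). Eif5a2 (1.59 ± 0.39) and Eif1ax (1.26 ± 0.40) also passed between YTHDF1 and YTHDF2, although their libraries overlapped.

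In the other direction, Eef1akmt2, a lysine methyltransferase of eEF1A, had 9.84, 8.96 and 10.7 CPM with YTHDF2 against 2.88, 4.50 and 5.29 with YTHDF1 and 4.28, 3.70 and 4.23 with YTHDF3. The YTHDF2 libraries lay at the level of Input and the others below it. Eif2d, a factor for non-canonical initiation and recycling, had 24.1, 32.9 and 19.7 CPM with YTHDF2 and 12.9, 10.6 and 10.1 with YTHDF1 (log2 difference -1.19 ± 0.20, YTHDF1 minus YTHDF2), a call lost without YTHDF2 RIP replicate 2. Eif5a was 2.65-fold higher with YTHDF2 than with YTHDF3 (edgeR adjusted p = 0.00959), and Eef1akmt2 2.42-fold higher (edgeR adjusted p = 0.0125). Both calls were lost without YTHDF3 RIP replicate 2.

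Genes of translation outside the initiation and elongation names were taken as lists for comparison. Of 17 genes for termination, recycling, poly(A) binding and hypusination, 10, 10 and 7 were depleted and 2, 2 and 2 enriched with YTHDF1, YTHDF2 and YTHDF3. The depleted shares of 58.8%, 58.8% and 41.2% compare with 25.8%, 19.0% and 23.0% of all genes tested, and the enriched share of 11.8% in each with 27.2%, 15.7% and 16.4%. Dhps, the enzyme that starts hypusine formation on eIF5A, was depleted in each (-1.29 ± 0.29, -1.06 ± 0.29 and -1.66 ± 0.29), as were the recycling partners Denr and Mcts1. Gspt2, a form of the release factor eRF3, was enriched in each (1.49 ± 0.24, 0.83 ± 0.24 and 0.98 ± 0.24). Pabpc1, the main cytoplasmic poly(A)-binding protein, was depleted with YTHDF2 (-1.82 ± 0.19) and YTHDF3 (-1.50 ± 0.19) and had no call with YTHDF1 (-0.39 ± 0.19).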

How the data were processed

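RIP-seq counts of 12 libraries were analysed. Per the labels and the study's methods, the authors made stranded libraries, trimmed reads with cutadapt 3.4, aligned them with STAR 2.7.7a to mm10 (GRCm38) and removed duplicates with UMI-tools 1.1.1. The deposited table holds raw counts, made by the authors with featureCounts 2.0.1, in which, per the file headers, a read that overlaps several genes or aligns several times is counted each time. After Eif4ebp3 and Eif4e3, the largest exonic shares with 1 other gene on the same strand were 6.95% in Eef1b2, 4.33% in Eef1a1 and 4.27% in Eef1d. The authors' DESeq2 tables served only to define the members, by biotype and symbol. Their fold changes, p-values, statistics and mean signal were not used.

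The members and lists were chosen with earlier results of these data known. Genes with a mean normalised count of at least 10 (17126) were fitted in 1 edgeR 4.0.16 quasi-likelihood model (R 4.3.3) with 4 groups and all libraries after TMM scaling, and p-values were Benjamini-Hochberg adjusted over all genes tested. The SE is the log2 fold change divided by the square root of F. An enriched or depleted gene differed by at least 0.32 on the log2 scale from Input, or 2-fold between RIPs, with an adjusted p of at most 0.05. With 3 against 3 libraries, an exact permutation test cannot go below 0.1 (two-sided), so none was used. The genes named were a fixed set of 22, the 3 most enriched and 3 most depleted called members of each RIP and the 2 largest differences of each RIP pair in each direction, given a mean of at least 100 normalised counts and no overlap. Other members are named to complete a role or a short count, and were chosen after their values were seen.

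Per the study's methods, each replicate's lysate was shared by the 3 RIPs and Input. Deviations from the group means of same-numbered libraries correlated at 0.845, 0.573 and 0.820 for YTHDF3 and Input, which were treated as paired, but at 0.0872, -0.286 and -0.367 for YTHDF1 and Input and 0.197, -0.359 and -0.352 for YTHDF2 and Input, which were taken to share a number only. Between libraries of different number, the highest correlations with Input were 0.487 for YTHDF1 and 0.600 for YTHDF2. Both were of RIP replicate 2 with Input replicate 3. Whether the numbers of these RIPs are shifted was not tested. For YTHDF1 and YTHDF2 the replicate block thus need not join libraries of 1 lysate. Transcript features came from GENCODE M21, and start-site sequences from RefSeq. The scripts were tested on simulated data. The alternatives were DESeq2 1.42.0, its size factors in edgeR, library size alone, TMM over protein-coding genes, other filters and the replicate block. Fits of 2 groups, removal of the length trend and leaving out each library were also run. The length trend was fitted on the exonic length of each gene.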

Additional observations from a re-analysis of the deposited data

How the results depend on the processing

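The 3 counts of depleted factor genes stayed within 1.5 times the reported 35, 34 and 37 under every alternative run, and when single libraries were left out they ran from 30 to 37, 26 to 36 and 32 to 38 with YTHDF1, YTHDF2 and YTHDF3. With YTHDF1 the count enriched (11) was 7 with library size alone, TMM over protein-coding genes, no filter, or 2 groups without the block, and 5 in 2 groups with the replicate block. Eif1a, Eif2ak3 and Eif4enif1 lost this call with library size alone, TMM over protein-coding genes and 2 groups with the replicate block. That block also gave 25 depleted. With YTHDF3 it moved the enriched share of calls over all genes tested from 41.7% to 53.0%. With YTHDF2 the count enriched (5) was 3 with no filter, with the replicate block in 2 groups or with the length trend removed under the block, and ran from 3 to 6 over single libraries, the lowest without Input replicate 2 or YTHDF2 RIP replicate 3. The all-library replicate block gave 10, 5 and 9 enriched and 35, 34 and 36 depleted.

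Differences between the RIPs were less stable. Genes higher with YTHDF1 than YTHDF2 (8) numbered 3 with library size alone or the length trend removed, with or without the block, and 5 in 2 groups with or without the replicate block. Genes higher with YTHDF2 than YTHDF1 (2) numbered 11 with library size. Genes higher with YTHDF1 than YTHDF3 (3) numbered 1 with library size or in 2 groups and 0 with the replicate block in 2 groups, and those higher with YTHDF3 (0) numbered 8 with library size, 2 with the length trend removed and 1 with DESeq2, its size factors, TMM over protein-coding genes, no filter, a minimum mean of 50 or the length trend under the block. Genes higher with YTHDF2 than YTHDF3 (2) numbered 0 in 2 groups with the replicate block and 1 with the length trend removed, and those higher with YTHDF3 (0) numbered 2 with library size, no filter or 2 groups and 1 with DESeq2. Over single libraries these 6 counts ran from 5 to 8, 1 to 6, 1 to 7, 0 to 1, 0 to 3 and 0 to 1. The extremes came without YTHDF1 RIP replicate 3 (5), YTHDF1 RIP replicate 2 (6) and YTHDF2 RIP replicate 2 (1) between YTHDF1 and YTHDF2, without YTHDF1 RIP replicate 1 (7) and YTHDF1 RIP replicate 2, YTHDF3 RIP replicate 2 or YTHDF3 RIP replicate 3 (1) between YTHDF1 and YTHDF3, and without YTHDF3 RIP replicate 2 (0) between YTHDF2 and YTHDF3. The cause of these changes was not tested.

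Log2 fold changes over Input that changed sign were, apart from the YTHDF1 value of Eef1aknmt, those of genes without a call. With YTHDF1, Eef1aknmt was -0.25 with the length trend removed and -0.26 with the block too. Eef1a2 was 0.0076 with the replicate block, 0.35 and 0.40 with the length trend removed without and with it, and -0.41 to 0.18 over single libraries. Eef2 was -0.22 with library size and -0.048 with TMM over protein-coding genes (-0.054 to 0.35 over single libraries). Eef2k was -0.025 with DESeq2, -0.027 with its size factors, -0.034 with no filter, -0.40 with library size, -0.23 with TMM over protein-coding genes, -0.10 with a minimum mean of 50, -0.0966 and -0.0974 in 2 groups without and with the block, -0.56 with the length trend removed with or without it, and -0.20 to 0.10 over single libraries. Eif4e was -0.054 with library size, -0.0068 and -0.023 with the length trend removed without and with the block, and -0.068 to 0.70 over single libraries, and Eif5a2 was -0.080 with library size and -0.056 to 0.76 over single libraries. Both passed the test without YTHDF1 RIP replicate 1.

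With YTHDF2, the length trend removed, without and with the block, gave 0.16 and 0.15 for Eef1a2, 0.34 and 0.34 for Eef1akmt2, -0.070 and -0.071 for Eif3a, 0.024 and 0.024 for Eif4a3 and -0.25 and -0.25 for Eif5b. Library size gave 0.0265 for Eef1akmt2 and 0.018 for Eif4ebp2. Single libraries moved Eef1a2 from -0.40 to 0.15, Eef1akmt2 from -0.14 to 0.078, Eif4ebp2 from -0.24 to 0.083 and Eif5b from -0.035 to 0.20. With YTHDF3, Eef2k was -0.13 and -0.13 and Eif4e3 0.16 and 0.17 with the length trend removed, and library size gave 0.14 for Eif2d, 0.10 for Eif4e3 and 0.13 for Eif4ebp2. Of the other values of named genes, 2088 kept direction and call, 86 lost the call and 24 gained it. With 3 libraries a group and a biological coefficient of variation of 0.323, small fold changes of single genes could not be resolved.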

Other observations

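Translation factors of the mitochondrion, which decode the organelle's own mRNAs, were taken as a further list, and 10 of them were tested. With YTHDF1, YTHDF2 and YTHDF3, 1, 2 and 2 were enriched and 4, 2 and 3 depleted, with median log2 fold changes of -0.50, -0.10 and 0.09, against medians of 0.12, 0.08 and 0.14 over protein-coding genes. The enriched shares of 10%, 20% and 20% compare with 27.2%, 15.7% and 16.4% of all genes tested, and the depleted shares of 40%, 20% and 30% with 25.8%, 19.0% and 23.0%. Guf1, a GTPase related to bacterial LepA, was depleted with YTHDF1 (-0.86 ± 0.24, edgeR adjusted p = 0.0102) and enriched with YTHDF2 (1.09 ± 0.24) and YTHDF3 (1.29 ± 0.24). Calls in both directions were made for 234 of all genes tested (1.37%) and for 0 of the 67 initiation and elongation factor genes. Gfm2, which recycles mitochondrial ribosomes, was enriched with YTHDF2 (1.26 ± 0.16) and YTHDF3 (0.87 ± 0.15), and its partner Mrrf was depleted in each RIP (-1.19 ± 0.20, -1.78 ± 0.21 and -1.03 ± 0.20).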
